A study of Mus musculus with 2 samples.

Results

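The transcripts described here belong to the hyaluronan and lectican system of the thoracic aorta, followed through 9 genes out of the 32287 features that were counted. The genes were chosen by symbol: *Vcan* and *Acan*, which encode the lecticans versican and aggrecan, *Hapln1* and *Hapln3*, which encode link proteins, the hyaluronan synthases *Has1* and *Has2*, the hyaluronan receptor *Cd44*, the hyaluronan-binding protein *Tnfaip6* (TSG-6), and *Cemip*, whose product takes part in hyaluronan breakdown. Each symbol matched 1 gene identifier in both feature lists. Droplet libraries had been made from single cells of the thoracic aortas of 2 wild-type male mice of the C57BL/6J strain at 12 weeks of age. The mice, named GFPiSMC, carried *Myh11*-CreERT2 and the mT/mG reporter. By the sample labels they had been given 5 daily doses of tamoxifen (1 mg each) when 3 weeks old. For adult mice the study's methods describe a higher dose started at a later age. In GFPiSMC mice the *Myh11* promoter drives the recombinase, which turns on membrane GFP in smooth muscle cells (SMCs), and both aortas shared this genotype and treatment. All samples formed 1 group (n = 2 aortas), so the question open to these data is which cells of a normal aorta carry the transcripts.

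Hyaluronan is a long, unsulfated sugar polymer that synthases spin out through the plasma membrane. Lecticans bind it at their N-terminal end, link proteins lock the bond, and the chondroitin sulfate chains on the lectican core draw in water, so that the complex fills space and resists compression. TSG-6 transfers heavy chains of the inter-alpha-trypsin inhibitor family to hyaluronan, CD44 tethers cells to it, and ADAMTS proteases cut the lectican cores. In arteries versican is a known component of the intima and media, and lecticans accumulate in several forms of aortic disease.

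The deposited cells numbered 8947 in aorta 1 and 6263 in aorta 2, with 47009780 and 30919996 unique molecular identifiers (UMIs, 1 per counted RNA molecule). After filtering and removal of doublets 6539 and 4614 cells remained, with a median of 5671 and 5396.5 UMIs. The libraries had 18 cell barcodes in common. Clusters were named from marker genes, and the 9 genes were kept out of the clustering. The p-values below compare clusters made from the same cells and rest on 2 aortas. Of 31 clusters, 27 were named and gave 9 cell types, among them 1899 and 1424 SMCs and 1393 and 1001 fibroblasts. All 8 SMC markers were detected in at least 25% of SMCs, and all 8 fibroblast markers in at least 25% of fibroblasts. Markers of a cell type were also counted at a low level in other types: over the 8 SMC markers the level in fibroblasts was 0.0130 to 0.115 times that in SMCs in aorta 1 and 0.0101 to 0.106 times in aorta 2, and over the 8 fibroblast markers the level in SMCs was 0.00658 to 0.0737 and 0.00598 to 0.0754 times that in fibroblasts.

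Before any comparison the 9 genes differed widely in how many UMIs they gave. *Vcan* held 6310 and 4613 UMIs in the analysed cells of aortas 1 and 2, and *Cd44* held 2302 and 1352. *Acan* gave 501 and 479 UMIs, *Tnfaip6* 498 and 295, *Has1* 155 and 105, *Hapln1* 132 and 117, and *Has2* 111 and 74. *Hapln3* gave 9 and 2 UMIs and *Cemip* 1 and 0, so neither passed the filter on low counts and neither was tested. UMI totals of different genes are not compared further, because capture differs between transcripts.

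Each lectican gene lies beside a link protein gene in the mouse genome (GRCm38, GENCODE M21 annotation). *Vcan* (ENSMUSG00000021614) spans chromosome 13 from 89655312 to 89742509 on the minus strand, and *Hapln1* (ENSMUSG00000021613) lies on the same chromosome from 89539796 to 89611652 on the plus strand. A gap of 43659 bp separates them, with 0 coding genes between. *Acan* (ENSMUSG00000030607, chromosome 7, 79053483 to 79115099, plus strand) and *Hapln3* (ENSMUSG00000030606, 79115102 to 79131018, minus strand) end 2 bp apart, tail to tail. *Has2* (ENSMUSG00000022367, chromosome 15, 56665627 to 56694539, minus strand) is overlapped on the opposite strand by the noncoding gene *Has2os*, which was counted with 68 and 76 UMIs. *Vcan* is overlapped in the same way by *Gm4117*, counted with 731 and 417 UMIs. The strand setting of the counting is not given in the sources used here, so part of the UMIs of these overlapping pairs could have been assigned to either gene.

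The sequence before the transcription start is shown for 3 genes on which the results turn, the 2 lecticans and *Has1*, a synthase found in mesothelial cells and fibroblasts. The sequences are from RefSeq (GRCm38.p6), 250 bases read 5′ to 3′ on the strand of the gene, and a promoter was found in that table for 8 of the 9 genes. Capitals mark the GC box GGGCGG on either strand, overlapping matches included. They lie at chr13:89742513-89742762 (minus strand) for *Vcan*, chr7:79052976-79053225 (plus strand) for *Acan* and chr17:17855189-17855438 (minus strand) for *Has1*.
Vcan: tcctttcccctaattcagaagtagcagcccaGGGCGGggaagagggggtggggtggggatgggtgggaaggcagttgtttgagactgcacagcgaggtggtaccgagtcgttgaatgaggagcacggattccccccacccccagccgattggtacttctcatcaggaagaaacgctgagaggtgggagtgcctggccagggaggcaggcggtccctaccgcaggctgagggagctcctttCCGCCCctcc
Acan: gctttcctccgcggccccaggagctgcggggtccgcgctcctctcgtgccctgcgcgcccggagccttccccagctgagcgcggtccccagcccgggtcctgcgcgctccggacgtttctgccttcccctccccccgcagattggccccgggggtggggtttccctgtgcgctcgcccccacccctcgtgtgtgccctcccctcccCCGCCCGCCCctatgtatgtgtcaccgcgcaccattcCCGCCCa
Has1: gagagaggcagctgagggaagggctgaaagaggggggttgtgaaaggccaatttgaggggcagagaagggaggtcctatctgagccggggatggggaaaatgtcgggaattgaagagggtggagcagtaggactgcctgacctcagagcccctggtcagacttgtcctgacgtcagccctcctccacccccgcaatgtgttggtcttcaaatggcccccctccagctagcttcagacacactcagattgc

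The *Vcan* window held 2 GC boxes and the *Acan* window 3, and the *Has1* window held 0. GC content was 62.4% for *Vcan*, 74.4% for *Acan* and 58% for *Has1*. Of 32536 mouse promoter windows of the same length, 33.0% held a GC box. The TATA box TATAAA (12.3% of windows), the AP-1 site TGANTCA (6.73%) and the CArG box of SMC genes (1.48%), each searched on both strands, matched in 0 of these 3 windows. Among the other windows, that of *Tnfaip6* held 1 GC box and 1 AP-1 site, that of *Cemip* 2 GC boxes and 1 TATA box and that of *Hapln3* 1 TATA box, and those of *Hapln1* and *Cd44* held none of these motifs.

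*Vcan*, the large lectican of vessels and loose connective tissue, was measured at 193 and 213 UMIs of the gene per 1000000 UMIs of the summed cells (CPM) in SMCs and at 277 and 289 CPM in fibroblasts of aortas 1 and 2. Fibroblasts were thus above SMCs in both aortas, and the ranges did not overlap. The fitted difference, SMCs against fibroblasts, was a log2 fold change of -0.46 ± 0.12 (SE) with an adjusted p of 0.00161 (edgeR quasi-likelihood test, Benjamini-Hochberg over all genes), which was under the 2-fold limit and so was not counted as a call. Every other named cell type was far lower, with means of 26.5 CPM ± 10.1 (SD, n = 2) in mesothelial cells, 22.5 ± 7.52 in endothelial cells, 7.86 ± 2.28 in lymphocytes and 6.66 ± 0.137 in myeloid cells, while erythroid cells held 3 and 0 UMIs, lymphatic endothelial cells 1 and 2, and neutrophils 0. Ordered by mean, mesothelial and endothelial cells overlapped between aortas, endothelial cells and lymphocytes did not, and lymphocytes, lymphatic endothelial cells and myeloid cells overlapped one another. Neutrophils cannot be placed below these types, because 3 UMIs there would amount to 31.4 and 45.8 CPM. In SMCs the *Vcan* level was 0.696 and 0.736 times that in fibroblasts, above each of the fibroblast markers measured the same way, whereas in endothelial cells it was 0.100 and 0.0593 times, within the range of those markers (0.00608 to 0.115 and 0.00497 to 0.102).

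Aggrecan, the lectican of cartilage, had another distribution. *Acan* was measured at 28.6 and 38.5 CPM in SMCs from 469 and 444 UMIs, and at 0.230 and 0.164 CPM in fibroblasts from 2 and 1 UMIs. Both SMC values stood far above both fibroblast values, and the fitted log2 fold change was 7.16 ± 0.40 (adjusted p = 7.78e-14). In fibroblasts *Acan* was at 0.00804 and 0.00427 times its SMC level, lower than any of the 8 SMC markers there. Endothelial cells held 1 and 1 UMIs and mesothelial cells 0 and 0. Lymphocytes held 6 and 12 UMIs (2.03 and 6.82 CPM), of which 5 and 11 fell in a cluster of 72 cells led by histone genes that also held SMC markers at a summed 2428 and 2229 CPM beside lymphocyte markers at 5093 and 3939 CPM and myeloid markers at 3411 and 4826 CPM, so that in aorta 2 the myeloid markers exceeded those of its name. The part of that mixture in the lymphocyte value was not tested.

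After thinning every cell to 1000 UMIs, so that cells of unequal depth could be set side by side, *Vcan* was found in 15.4% and 17.2% of SMCs (exact 95% intervals 13.8 to 17.1 and 15.3 to 19.3), against 20.3% (18.2 to 22.5) and 22.8% (20.2 to 25.5) of fibroblasts. In myeloid cells, taken as a cell type low in *Vcan*, the share was 0.348% and 0.372%, at median depths of 5743 and 5706 UMIs. *Acan* was found in 2.26% (1.64 to 3.04) and 4.07% (3.11 to 5.23) of SMCs and in 0 of 1393 and 0 of 1001 fibroblasts, which allows shares of up to 0.215% and 0.30% of fibroblasts with an *Acan* UMI at this thinned depth and sets no limit on the cells that carry the transcript. Without thinning 0.144% and 0.0999% of fibroblasts held an *Acan* UMI. Without thinning *Vcan* was seen in 51.6% and 55.0% of SMCs and *Acan* in 15.2% and 17.6%, at median depths of 8651 and 8231 UMIs. Intervals and limits cover counting error only.

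The link protein that partners these lecticans was found elsewhere as well. *Hapln1* was measured at 13.9 and 11.9 CPM in endothelial cells, at 3.35 and 6.16 CPM in SMCs and at 3.44 and 2.96 CPM in fibroblasts. Endothelial cells were above SMCs in both aortas, with a log2 fold change of 1.31 ± 0.34 (adjusted p = 0.00219), from 42 and 27 UMIs against 55 and 71. With cells of at least 5000 UMIs alone, the adjusted p was 0.0657 (range 0.000217 to 0.0657 over 12 alternatives). Within the endothelial cells the UMIs were concentrated in a cluster of 418 cells led by *Ssu2*, *Adra2a* and *Sema3g*, where *Hapln1* reached 39.5 and 21.1 CPM, while the largest endothelial cluster, of 885 cells, gave 2.06 and 8.62 CPM. Between SMCs and fibroblasts the difference was 0.54 ± 0.35 on the log2 scale (adjusted p = 0.209). Mesothelial and myeloid cells held 0 UMIs of *Hapln1*. Against a floor of 3 UMIs per library, fibroblasts were at least 6.83-fold and 3.51-fold higher than myeloid cells in aortas 1 and 2, while the bounds against mesothelial cells were 2.08-fold and 0.996-fold.

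Transcripts of the synthases that make the polymer were found in fibroblasts and mesothelial cells and were rare in SMCs. *Has2*, the main synthase of the developing heart and vessels, was measured at 12.3 and 11.3 CPM in fibroblasts from 107 and 69 UMIs and at 0.183 and 0.173 CPM in SMCs from 3 and 2 UMIs. *Has1* was measured at 9.42 and 10.03 CPM in fibroblasts, from 82 and 61 UMIs, and in SMCs at 0 and 2 UMIs. The log2 fold changes, SMCs against fibroblasts, were -5.78 ± 0.45 for *Has2* (adjusted p = 7.81e-11) and -6.50 ± 0.53 for *Has1* (adjusted p = 6.63e-11). The few SMC reads corresponded to 0.0149 and 0.0153 times the fibroblast level for *Has2*, which is within the range of the fibroblast markers in SMCs given above. Of all *Has2* UMIs, 96.4% (exact 95% interval 91.0 to 99.0) and 93.2% (84.9 to 97.8) were in fibroblasts.

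Mesothelial cells, the squamous lining of the serous surface, carried *Has1* but hardly any *Has2*. *Has1* was measured there at 39.3 and 38.7 CPM from 71 and 39 UMIs, above both fibroblast values, while *Has2* gave 0 and 1 UMIs. Against fibroblasts the log2 fold changes were 1.79 ± 0.30 for *Has1* (adjusted p = 2.01e-05) and -5.12 ± 0.78 for *Has2* (adjusted p = 9.21e-06). A mesothelial cluster of 24 cells held fibroblast markers at a summed 14351 and 11900 CPM. The other mesothelial cluster, of 408 cells, gave *Has1* at 44.0 and 41.5 CPM. Its fibroblast markers summed to 5388 and 8191 CPM beside mesothelial markers at 9085 and 8371 CPM, and their part in the *Has1* value was not tested. Fibroblasts held 52.9% (44.7 to 61.0) and 58.1% (48.1 to 67.6) of all *Has1* UMIs, and mesothelial cells held 45.8% (37.8 to 54.0) and 37.1% (27.9 to 47.1) although they were 4.19% and 3.42% of cells.

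*Cd44*, the receptor that anchors cells to hyaluronan and is broadly carried by leukocytes, was the one gene of the set detected in every cell type, in at least 1 aorta. The level was 1194 and 732 CPM in neutrophils, from 114 and 48 UMIs in only 46 and 35 cells, then 142 and 103 CPM in myeloid cells, 80.8 and 77.0 CPM in fibroblasts, 56.4 and 62.4 CPM in mesothelial cells, 30.1 and 47.7 CPM in lymphocytes and 22.3 and 22.5 CPM in SMCs. Neighbours in this order did not overlap between aortas. The mesothelial value included the 24 cells with high fibroblast markers (160 and 243 CPM), and the mesothelial cluster of 408 cells alone, at 42.1 and 49.0 CPM, overlapped the lymphocytes. Endothelial cells followed at 9.59 and 15.8 CPM. Fibroblasts exceeded SMCs (log2 fold change of SMCs against fibroblasts -1.79 ± 0.16, adjusted p = 1.37e-10), and myeloid cells exceeded lymphocytes (1.79 ± 0.20, adjusted p = 8.37e-09). Myeloid cells and fibroblasts differed by 0.75 ± 0.15 (adjusted p = 0.000107), under the 2-fold limit. The difference of endothelial cells from SMCs was -1.03 ± 0.27 (adjusted p = 0.00184), and it lost its call under 7 alternatives, with values from -0.996 to -0.52. Among myeloid clusters the one led by *Ly6i*, *Cd300e* and *Chil3* was highest, at 413 and 340 CPM, and the largest, led by *Cd209f*, was at 45.7 and 34.7 CPM.

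*Tnfaip6*, whose product cross-links hyaluronan through heavy chains, was measured at 26.3 and 20.9 CPM in fibroblasts and at 14.1 and 13.6 CPM in SMCs. Fibroblasts were higher in both aortas, with a log2 fold change of SMCs against fibroblasts of -0.75 ± 0.19 (adjusted p = 0.00141), under the 2-fold limit. With the size factors of DESeq2 the value was -1.03 and counted as a call. Neutrophils gave 4 and 0 UMIs, endothelial cells 2 and 0 and myeloid cells 1 and 0. *Hapln3* gave 4 and 1 UMIs in endothelial cells and 3 and 1 in SMCs, and the single *Cemip* UMI was in a fibroblast of aorta 1.

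**Figure D1:**
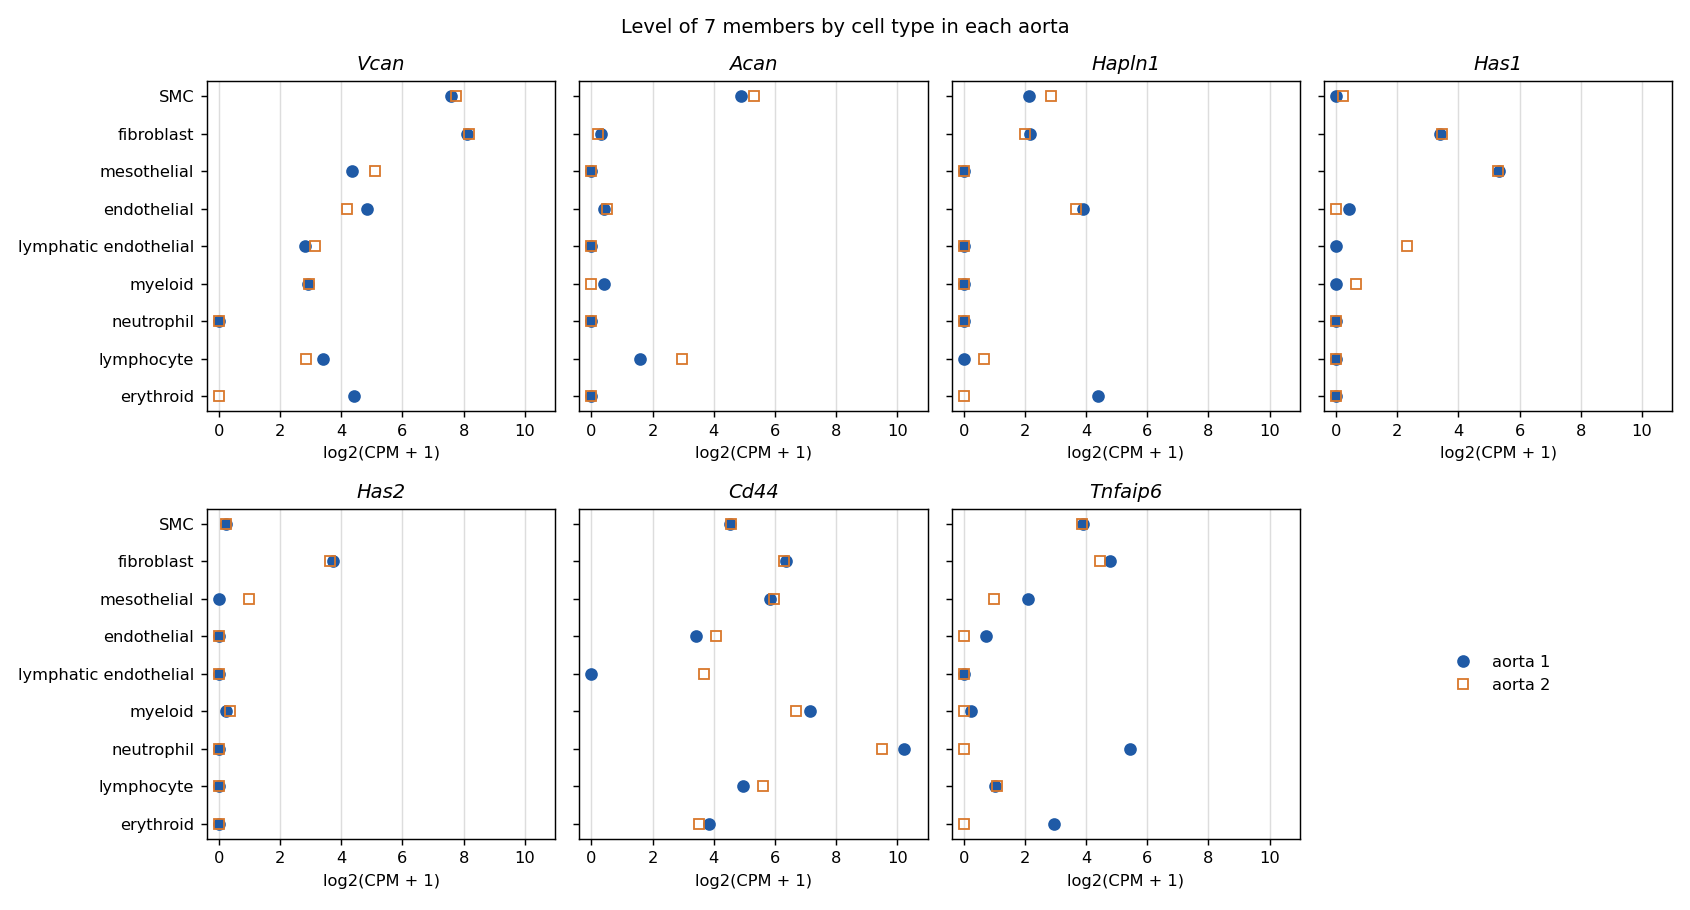
Each panel plots 1 gene, with the level as log2(CPM + 1) on the x axis and 9 cell types on the y axis, and 1 symbol for each of 2 aortas. *Vcan* is high in SMCs and fibroblasts, *Acan* in SMCs, *Has2* in fibroblasts, *Has1* in mesothelial cells and fibroblasts, and *Cd44* is highest in neutrophils.

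Read by source, SMCs held 50.2% (exact 95% interval 49.0 to 51.4) and 53.2% (51.8 to 54.7) of *Vcan* UMIs, and fibroblasts held 38.3% and 38.1%. SMCs held 93.6% (91.1 to 95.6) and 92.7% (90.0 to 94.9) of *Acan* UMIs. SMCs made up 29.0% and 30.9% of the cells but 39.9% and 41.7% of all UMIs. *Tnfaip6* was divided between SMCs (46.4% and 53.2%) and fibroblasts (46.0% and 43.1%), and *Hapln1* among SMCs (41.7% and 60.7%), endothelial cells (31.8% and 23.1%) and fibroblasts (22.7% and 15.4%). For *Cd44* the myeloid cells (36.6% and 27.1%) and fibroblasts (30.6% and 34.6%) led. These shares depend on how many cells of each type the digestion and the sort for viable cells released.

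**Figure D2:**
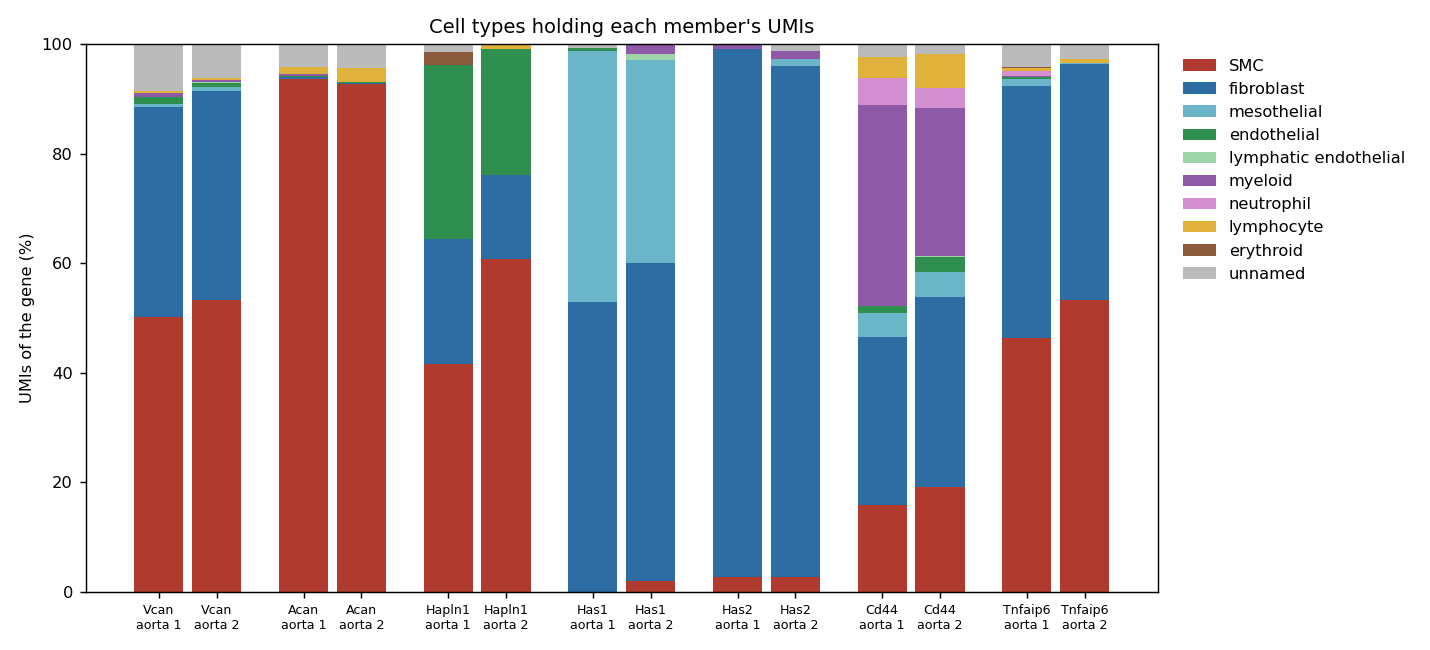
The bars plot, for 7 genes in each of 2 aortas, the percent of the gene's UMIs (y axis) found in each cell type, with unnamed clusters in gray. *Acan* comes almost wholly from SMCs (93.6% and 92.7%) and *Has2* from fibroblasts (96.4% and 93.2%), whereas *Vcan*, *Hapln1*, *Cd44* and *Tnfaip6* have several sources.

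Counted over the tests, 4 of 7 members passed the threshold (adjusted p under 0.05 and over 2-fold) between SMCs and fibroblasts, 1 higher and 3 lower in SMCs. The share was 18.8% over the 10017 genes that had no part in clustering or naming. Those leave out the variable genes used for clustering, as do all background shares below. The members and listed genes were instead kept out of clustering whether variable or not. Over all 13621 genes tested, 3567 were called here, and 3289, 3991, 5469 and 4246 in the comparisons that follow, in order. Between mesothelial cells and fibroblasts 5 of 7 passed (17.8% of the 10017 genes), 5 of 7 between endothelial cells and SMCs (22.6%), 5 of 7 between myeloid cells and fibroblasts (32.4%) and 2 of 7 between myeloid cells and lymphocytes (26.8%). The mesothelial count includes *Hapln1*, which had 0 mesothelial UMIs and floor bounds of only 2.08-fold and 0.996-fold in aortas 1 and 2. Endothelial cells were below SMCs for *Acan* (-6.50 ± 0.49 on the log2 scale), *Tnfaip6* (-5.24 ± 0.56) and *Vcan* (-3.30 ± 0.17). With cells of at least 5000 UMIs that comparison called 3 members in place of 5. Myeloid cells were below fibroblasts for *Tnfaip6* (-7.34 ± 0.53), *Has2* (-5.51 ± 0.59), *Vcan* (-5.31 ± 0.19) and *Has1* (-5.22 ± 0.63). In the test of any difference among the 9 types all 7 members passed, but so did 91.1% of the genes. The choice of scaling moved the fold changes as a whole: with the size factors of DESeq2 the median log2 fold change of SMCs against fibroblasts over all 13621 genes went from -0.07 to -0.35 and the share of calls higher in SMCs from 39.8% to 28.0%, and for myeloid cells against fibroblasts from -0.02 to -0.32 and from 45.0% to 34.7%.

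**Figure D3:**
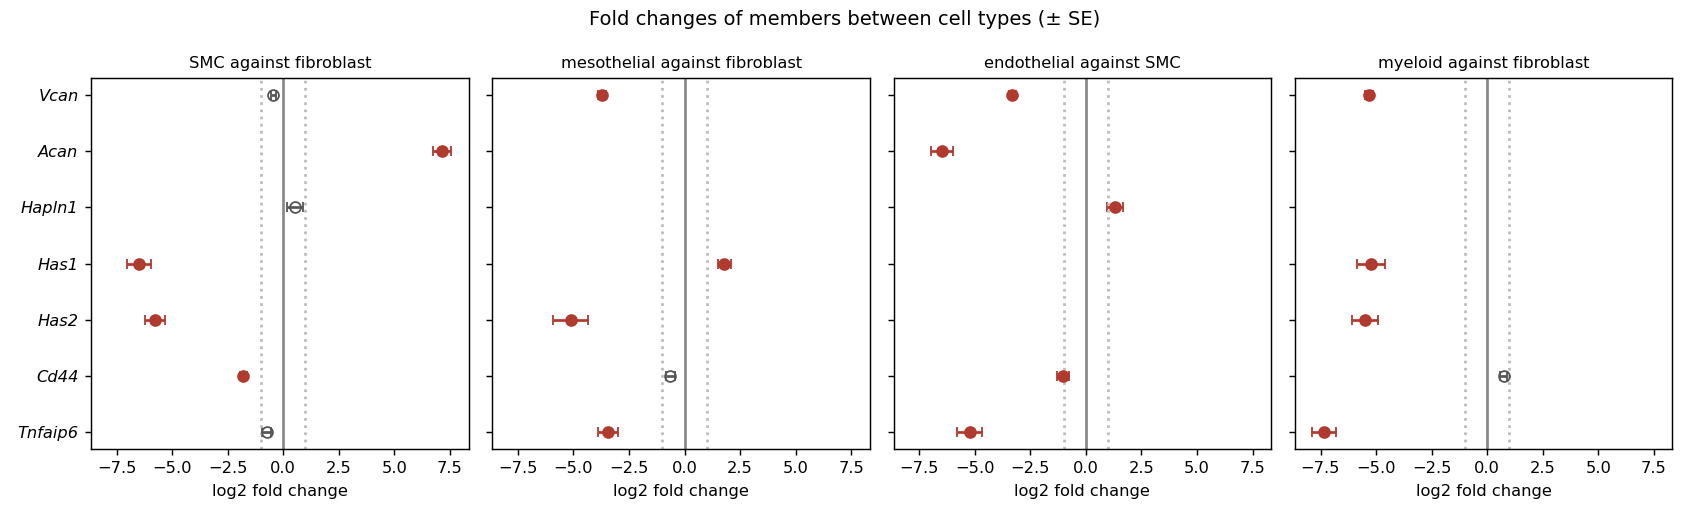
The 4 panels plot the log2 fold change (x axis, error bars are SE) of each member (y axis) between named cell types, with filled symbols past the threshold and dotted lines at 2-fold. Genes with at most 3 UMIs in each library of both groups, or with 0 UMIs throughout 1 group, are left out, and *Acan* (7.16), *Has2* (-5.78) and *Has1* (-6.50) stand farthest from 0 between SMCs and fibroblasts.

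The SMCs themselves fell into 8 subsets, and *Vcan* was concentrated in 1 of them. The subset called SMC 1 here (864 cells, led by *Slc35f2*, *Grem1*, *Dlx2*, *Chrdl2* and *Krt15*) had *Vcan* at 535 and 504 CPM. SMC 0 (1053 cells, led by *Unc45b*, *5033428I22Rik*, *Gas2l3*, *Hand2os1* and *Psd*) had 90.1 and 125 CPM, and SMC 2 (863 cells, led by *Chga*, *Chgb*, *Sema3e*, *Sema3a* and *Ifi27l2b*) had 123 and 104 CPM. SMC 1 was thus above both of the other large subsets in each aorta, and it held 58.7% and 61.6% of the *Vcan* UMIs of SMCs with 24.1% and 28.6% of the cells. The log2 fold change was -2.12 ± 0.14 for SMC 0 against SMC 1 (adjusted p = 5.01e-14) and 2.05 ± 0.14 for SMC 1 against SMC 2 (adjusted p = 8.24e-14), while SMC 0 and SMC 2 differed by -0.07 ± 0.14 (adjusted p = 0.954). At 1000 UMIs per cell *Vcan* was found in 38.7% (34.2 to 43.4) and 35.1% (30.5 to 40.0) of SMC 1 cells against 7.57% (5.69 to 9.83) and 11.6% (8.56 to 15.3) of SMC 0 cells.

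*Acan* did not follow *Vcan*. It was highest in SMC 5 (113 cells, led by *Pappa2*, *Gm37800*, *Gprc5c*, *Kcna5* and *Vill*), at 85.8 and 103 CPM, where *Vcan* was only 7.98 and 38.0 CPM. The level was 33.5 and 51.0 CPM in SMC 0, 29.0 and 39.9 CPM in SMC 2 and 16.4 and 23.6 CPM in SMC 1, so the subset with the most *Vcan* had the least *Acan* of the 3 large subsets. SMC 0 exceeded SMC 1 by 1.21 ± 0.21 on the log2 scale (adjusted p = 2.76e-05), and SMC 1 was below SMC 2 by -0.93 ± 0.22 (adjusted p = 0.00126), under the 2-fold limit. SMC 5 was not among the pairs tested, and at 1000 UMIs per cell *Acan* was found in 9.38% (3.52 to 19.3) and 12.2% (4.63 to 24.8) of its cells, with intervals that overlap those of SMC 0 (1.59 to 4.19 and 4.31 to 9.58).

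Of the 3 large subsets, SMC 1 also had the highest *Hapln1* and *Tnfaip6*. *Hapln1* was measured at 11.5 and 20.3 CPM in SMC 1, from 40 and 61 UMIs, and at 0.615 and 1.501 CPM in SMC 0, from 4 and 5 UMIs. SMC 1 held 72.7% and 85.9% of the *Hapln1* UMIs of SMCs, but the gene was too low over the subsets to enter the tests. *Tnfaip6* was measured at 37.9 and 26.0 CPM in SMC 1, 5.84 and 5.70 CPM in SMC 0 and 8.47 and 11.9 CPM in SMC 2, while SMC 7, a mixed subset of 29 cells, gave 30.1 and 78.0 CPM from 4 and 6 UMIs. SMC 0 was lower than SMC 1 by -2.28 ± 0.27 on the log2 scale (adjusted p = 3.05e-08) and SMC 1 higher than SMC 2 by 1.53 ± 0.25 (adjusted p = 8.82e-06). *Cd44* went the other way, at 7.18 and 5.66 CPM in SMC 1, 23.4 and 14.4 CPM in SMC 0 and 28.4 and 39.9 CPM in SMC 2. The log2 fold changes were 1.79 ± 0.32 for SMC 0 against SMC 1 (adjusted p = 5.13e-05) and -2.51 ± 0.30 for SMC 1 against SMC 2 (adjusted p = 4.46e-08). *Has1* and *Has2* stayed at 3 UMIs or fewer per aorta in each SMC subset.

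Of the 4 members tested between subsets, 4 passed between SMC 0 and SMC 1 (4.21% of 6724 genes), 3 between SMC 1 and SMC 2 (4.55%) and 0 between SMC 0 and SMC 2 (0.387%). In the last pair 2 members, *Cd44* and *Tnfaip6*, had an unadjusted p under 0.05 by edgeR, with adjusted p of 0.0689 and 0.285, and DESeq2 gave the same counts of 2 and 0. All 4 passed the test of any difference among subsets, as did 41.1% of the genes. Other markers moved with SMC 1. The summed level of the 8 SMC markers was 24044 and 25424 CPM there against 48255 and 45949 in SMC 0 and 45746 and 45373 in SMC 2, the 5 pericyte markers summed to 3391 and 2864 CPM against 247 and 441 in SMC 0, and the 8 fibroblast markers to 1016 and 1033 CPM against 540 and 539. The part of these markers in the values of the members was not tested. The subsets SMC 3 and SMC 7 had fibroblast or leukocyte genes among their leading genes.

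**Figure D4:**
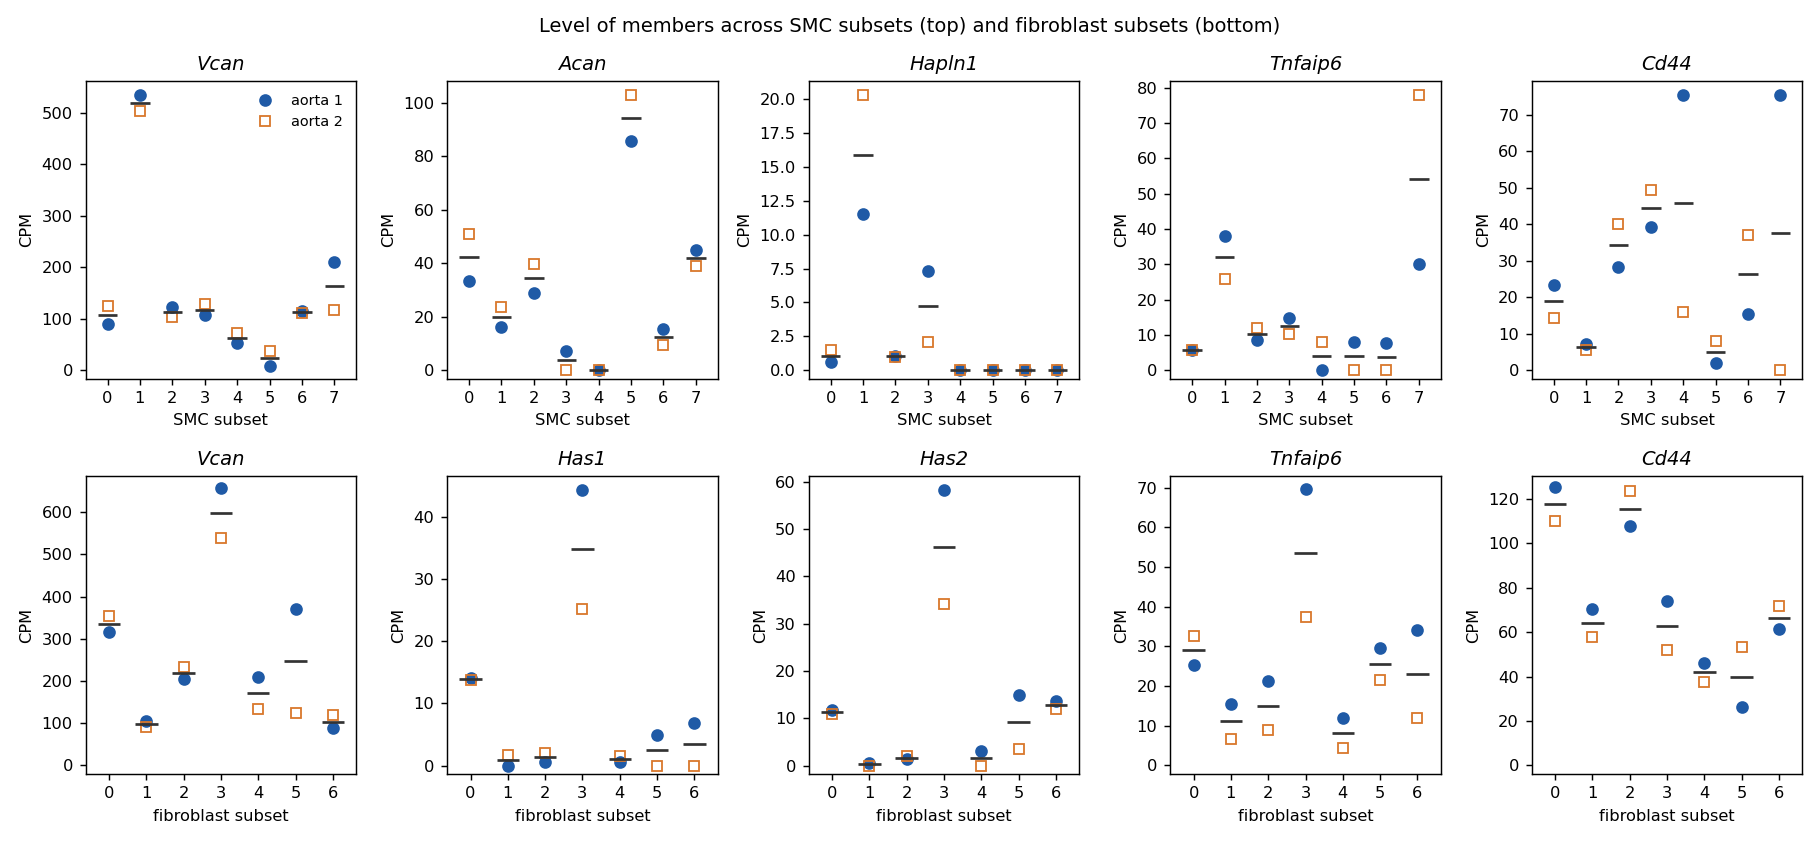
The panels plot the level in CPM (y axis) of 5 genes in each of 8 SMC subsets (top) and 5 genes in each of 7 fibroblast subsets (bottom), with 1 symbol per aorta and a line at the mean. *Vcan* and *Hapln1* peak in SMC 1 and *Acan* in SMC 5, and *Vcan*, *Has1*, *Has2* and *Tnfaip6* peak together in fibroblast subset 3.

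Among fibroblasts the lectican and both synthases were highest in the same subset. Fibroblast 3 (362 cells, led by *Akr1c18*, *Dmkn*, *Adamts16*, *Gm49257* and *Krtdap*) had *Vcan* at 657 and 539 CPM, *Has1* at 44.4 and 25.2 CPM, *Has2* at 58.3 and 34.1 CPM and *Tnfaip6* at 69.6 and 37.5 CPM. Each of these was above both values of every other fibroblast subset. For *Has1* the mesothelial values, 39.3 and 38.7 CPM, lay between those of fibroblast 3 in aortas 1 and 2. With 11.3% and 20.4% of the fibroblasts, it held 62.2% and 60.7% of their *Has1* UMIs and 62.6% and 72.5% of their *Has2* UMIs. Fibroblast 0 (532 cells, led by *Dkk2*, *Myoc*, *Esm1*, *Sct* and *Ren1*) came next for *Has1*, at 14.04 and 13.8 CPM, and had the highest *Cd44* together with fibroblast 2, at 125 and 110 CPM against 108 and 123 CPM. Fibroblast 1 (529 cells, led by *AI646519*, *Cpb1*, *Tnc*, *Dchs2* and *Galnt5*) had the lowest *Vcan* of the 5 largest subsets, at 105 and 90.8 CPM, 0 and 2 UMIs of *Has1* and 1 and 0 of *Has2*, but the highest *Hapln1*, at 9.97 and 7.56 CPM. Of the 5 members tested all passed the test of any difference among fibroblast subsets, against 27.3% of 8257 genes, with adjusted p of 3.85e-08 for *Vcan*, 5.64e-08 for *Has1*, 7.10e-09 for *Has2*, 9.39e-07 for *Cd44* and 7.69e-05 for *Tnfaip6*. Mesothelial markers summed to 72.2 and 47.1 CPM in fibroblast 3 against 3.93 and 5.09 in fibroblast 0, and their part in these values was not tested.

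The wider pathway was followed through 66 further genes in 8 lists. Between SMCs and fibroblasts 54 could be tested, of which 8 were higher and 21 lower in SMCs, beside 18.8% of the background genes called in either direction, with a median log2 fold change of -0.78 beside -0.07 over all genes. The enzymes that supply sugar precursors and the remaining synthase gave 0 higher and 4 lower of 8 tested, led by *Gfpt2*, which opens the hexosamine pathway (-6.72 ± 0.17), and *Ugdh*, which makes UDP-glucuronic acid (-2.79 ± 0.13). The mean level of *Ugdh* was 36.1 CPM in SMCs beside 255 CPM in fibroblasts. The median of this list was -1.06.

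The machinery of chondroitin sulfate chains was divided. Of 19 genes tested 3 were higher in SMCs and 7 lower (18.8% of the background genes were called), with *Chsy3* (2.95 ± 0.22), a chondroitin synthase, and *Chst3* (2.84 ± 0.26), a chondroitin sulfotransferase, farthest up and the sulfotransferases *Chst7* (-3.84 ± 0.33) and *Chst15* (-1.68 ± 0.33) farthest down. With the size factors of DESeq2 10 of these genes were lower and 3 higher. *Chsy3* was also higher in the *Vcan*-rich subset, at -1.97 ± 0.16 for SMC 0 against SMC 1, and so was *Chst11* (-3.86 ± 0.32).

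The lectican-cleaving proteases and the lectican-binding matrix proteins differed gene by gene, with 3 of 6 proteases and 4 of 4 matrix proteins called beside 18.8% of the background genes. Of 6 proteases tested *Adamts5* (-4.42 ± 0.19) and *Adamts15* (-2.33 ± 0.17) were lower in SMCs and *Adamts8* (1.03 ± 0.35, adjusted p = 0.0173) was higher, although with the size factors of DESeq2 *Adamts8* was not called. *Adamts1*, with means of 133 CPM (SMCs) and 121 CPM (fibroblasts), did not pass the test. Of the 4 lectican-binding matrix proteins *Fbln2* (-6.12 ± 0.22), *Fbln1* (-3.92 ± 0.16) and *Fbn1* were lower in SMCs and *Tnc* (1.88 ± 0.19) was higher. Within SMCs *Fbln1* was higher in SMC 1, at 230 CPM against 7.21 CPM in SMC 0 (-4.82 ± 0.19), and *Tnc* was lower, at 1.07 against 11.9 CPM (3.50 ± 0.43).

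The heavy-chain family that TSG-6 couples to hyaluronan divided by gene. *Itih4* averaged 133 CPM in SMCs against 2.91 CPM in fibroblasts (5.56 ± 0.21) and *Itih3* was higher in SMCs as well (2.10 ± 0.39), whereas *Itih5* was at 3.34 and 223 CPM (-6.04 ± 0.20). *Itih4* lacks the site for coupling to hyaluronan that its relatives share. Among the degradation genes *Cemip2*, a cell-surface hyaluronidase, was higher in SMCs (2.49 ± 0.18), and the lysosomal *Hexa* (-1.48 ± 0.12) was lower. Of 6 other receptors 0 were higher in SMCs and 2 lower, *Tlr2* (-1.11 ± 0.23) and *Hmmr*, which had 0 UMIs in SMCs and 0 and 11 in fibroblasts, and with the size factors of DESeq2 4 were lower. The share of background genes called was 18.8%, as above. None of the other lecticans and link proteins (*Bcan*, *Ncan*, *Hapln2*, *Hapln4*) reached the level needed for a test.

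**Figure D5:**
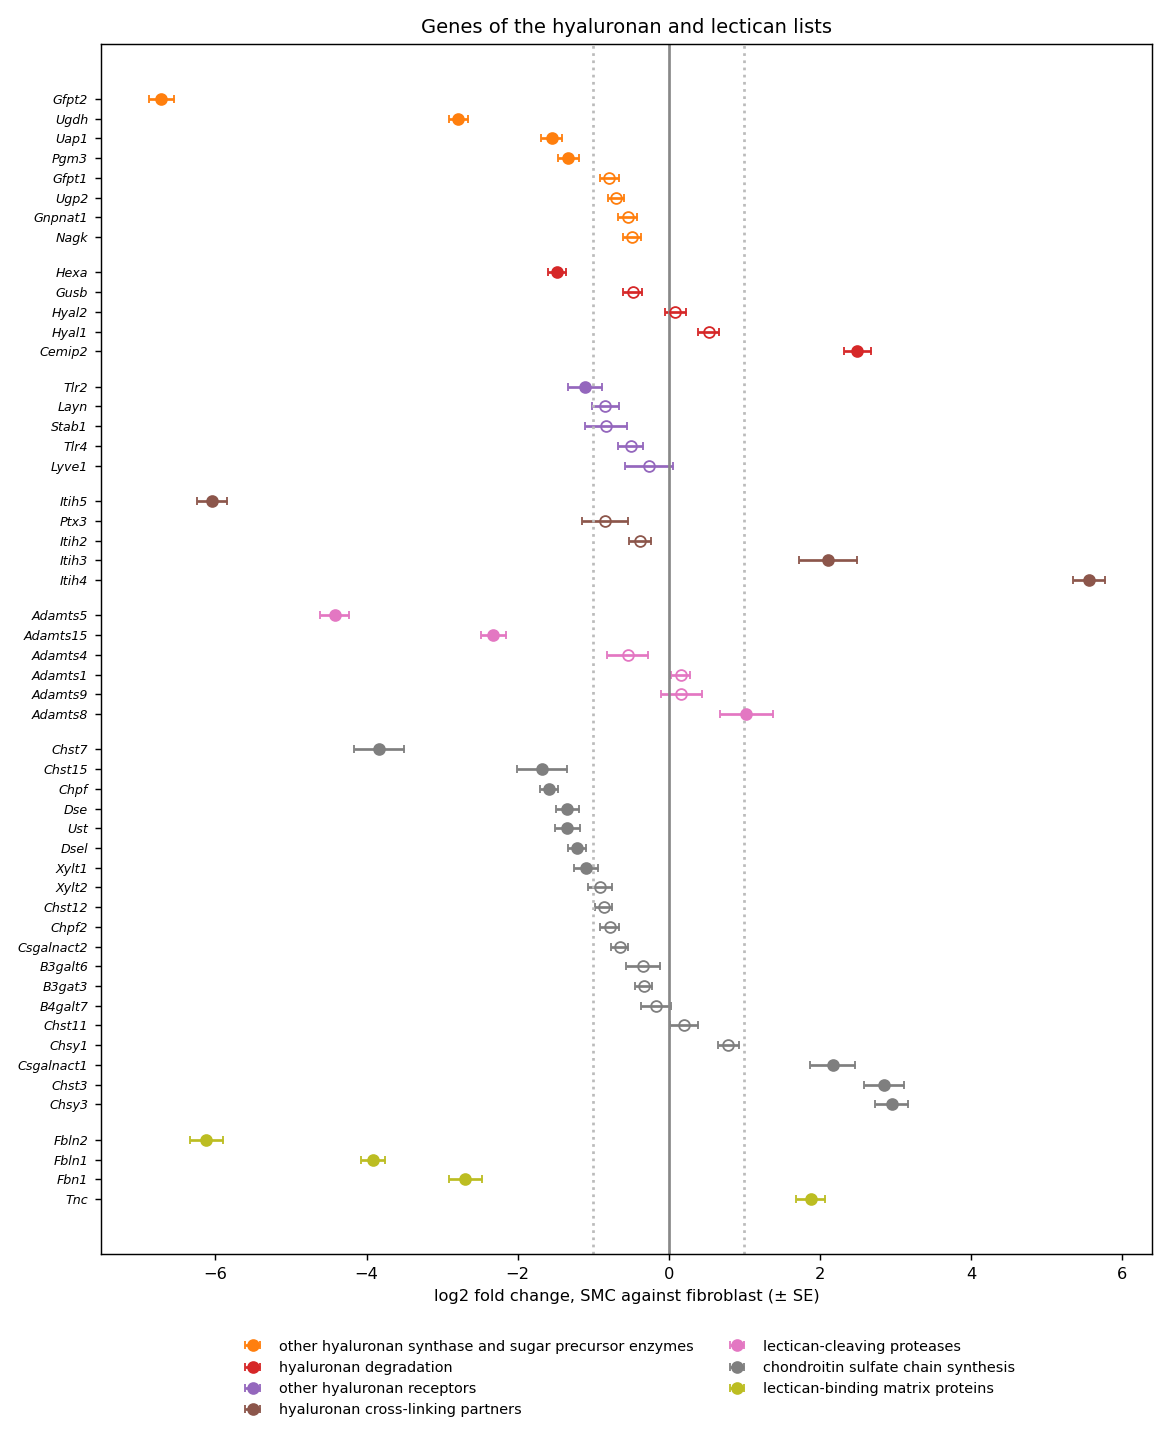
The plot gives the log2 fold change of SMCs against fibroblasts (x axis, error bars are SE) for tested genes of the 7 lists with values (y axis), colored by list, with filled symbols past the threshold and *Hmmr*, which had 0 UMIs in SMCs, left out. *Gfpt2* (-6.72), *Fbln2* (-6.12) and *Itih5* (-6.04) lie farthest to the fibroblast side and *Itih4* (5.56) to the SMC side.

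The receptor and degradation lists were also read in the other comparisons. Endothelial cells exceeded SMCs for *Stab1*, a scavenger receptor (7.32 ± 0.18), for *Lyve1* (1.75 ± 0.32), a hyaluronan-binding receptor related to CD44, and for *Hyal2* (3.23 ± 0.12) and *Cemip2* (2.28 ± 0.13), with 3 of 6 receptors and 2 of 6 degradation genes higher and 0 lower in both lists, beside 22.6% of the background genes called in either direction. Myeloid cells exceeded fibroblasts for *Lyve1* (8.12 ± 0.24) and *Stab1* (6.89 ± 0.18), with 4 of 6 receptors higher and 1 lower and 3 of 6 degradation genes higher, beside 32.4% of the background genes called in either direction. With the size factors of DESeq2 these counts were 3 receptors and 2 degradation genes higher. Myeloid cells were below fibroblasts for 7 of 8 precursor genes, 6 of 6 proteases and 11 of 19 chondroitin sulfate genes. Against lymphocytes 5 of 6 receptors were higher and 1 lower in myeloid cells, and 5 of 6 degradation genes higher and 0 lower. Of 10017 background genes 26.8% were called there, 1660 of them higher and 1028 lower. Mesothelial cells were below fibroblasts for 13 of 19 chondroitin sulfate genes and 5 of 8 precursor genes, *Ugdh* (-2.39 ± 0.17) among them, beside 17.8% of the background genes called, and with no scaling factors 3 precursor genes were lower. They were above fibroblasts for *Adamts9* (1.42 ± 0.33), *Csgalnact1* (1.47 ± 0.48) and *Cemip2* (1.20 ± 0.31), each the only gene of its list called higher. Of 6 proteases tested 5 were lower in mesothelial cells, and of 6 degradation genes 3 were lower.

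The genes whose level over 29 clusters was most like that of each member, among 13431 genes with at least 100 UMIs and by Pearson's r of log2(CPM + 1), were *Olfml2b* (0.926), *Kdelr3* (0.911) and *Arhgef25* (0.893) for *Vcan* and *Cck* (0.934), *Rgs4* (0.924) and *Lrrc14b* (0.918) for *Acan*. For *Has2* they were *Has2os* (0.922), *4930404H11Rik* (0.910) and *Ugdh* (0.883), and for *Has1* *Lvrn* (0.885), *Wnt2b* (0.865) and *Pnp2* (0.859). For *Tnfaip6* they were *Prrx1* (0.881), *Insyn1* (0.840) and *Tlcd1* (0.832), for *Cd44* *Gm2a* (0.823), *G6pdx* (0.817) and *Myd88* (0.807), and for *Hapln1* *Cytl1* (0.731), *Mdga2* (0.730) and *Clec14a* (0.717). Among the members themselves r was 0.69 for *Vcan* and *Tnfaip6*, 0.64 for *Has1* and *Has2* and 0.41 for *Vcan* and *Acan*. The clusters share 2 libraries and differ in depth, so these values are descriptions. That of *Has2* and *Has2os* could also hold UMIs assigned to either gene of this overlapping pair, which was not tested.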

How the data were processed

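Single-cell libraries (10x Genomics) of 2 aortas were analysed from the deposited counts, which are UMIs per gene and cell that the authors obtained with Cell Ranger 4.0.0 on mm10; Seurat 4.0 is named for their later steps. The labels describe a sort of viable single cells, whereas the study's methods describe a sort for GFP, and the cells were kept whole here. Cells with over 200 genes, 1000 to 25000 UMIs and under 10% mitochondrial UMIs were kept, and Scrublet doublets were removed per aorta (205 and 84 cells). Clustering used scanpy 1.11.5 and leidenalg 0.10.2 (2000 variable genes, 30 components, 15 neighbours, resolution 1, subsets 0.5), without the members and listed genes. Counts were summed per aorta and cell type, or subset with at least 10 cells per aorta, and fitted with edgeR 4.0.16 (quasi-likelihood, TMM, filterByExpr), with Benjamini-Hochberg adjustment over all genes. A call needs an adjusted p under 0.05 and over 2-fold, or the adjusted p alone for tests among all types or subsets. DESeq2 1.42.0 was an alternative, beside other scalings, filters, depth limits and resolutions. The fits were tested on simulated data. CPM are the counts of a gene per 1000000 UMIs of a sum. A UMI total of 3 per library was the floor. The members and lists were chosen with earlier results of these data known. Named are all members, and from each list up to 2 called genes in each direction, with further genes chosen after their values were seen. Sums with the same number come from the same aorta, so the pairing is by animal. The values of 1 gene of the lists are not reported here, although it is included in their counts.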

Additional observations from a re-analysis of the deposited data

Results flagged for a closer look

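*Vcan* was measured at a mean of 639 CPM ± 43.9 (SD, n = 2) in a cluster of 173 cells led by *Pnoc* and *Syndig1*, from 479 and 242 UMIs. It was flagged because the cluster has no cell type name and entered no comparison, while its level lay above that of every named type. Its fibroblast markers summed to 29504 and 23612 CPM, its SMC markers to 8020 and 12334 CPM and its 5 pericyte markers to 1177 and 1165 CPM, and the part of these markers in the *Vcan* value was not tested.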

How the results depend on the processing

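Over the member fold changes, 461 values under an alternative gave the same call or, with an aorta left out, stayed within the spread between aortas, 8 lost a call, 5 gained one and 12, from leaving out an aorta, moved by more than that spread, while 0 called values changed sign. With cells of 5000 to 25000 UMIs, endothelial cells against SMCs gave 3 called members in place of 5. The share of *Acan* UMIs from SMCs was 90.6% with doublets kept, 95.0% at 5000 to 25000 UMIs and, in alternatives chosen after seeing the data, 91.6% without mixed subsets and 91.8% with no UMI limits. Leaving out an aorta, it was 92.7% to 93.6%, and that of *Vcan* 50.2% to 53.2%. Without thinning, 53.3% of SMCs held a *Vcan* UMI and 16.4% an *Acan* UMI. With the aorta as a replicate block, 4 members were called between SMCs and fibroblasts, and no call on a member changed. With 1 aorta left out no test remains. At the halved subset resolution the 3 largest SMC subsets no longer matched 3 separate subsets, so their pairs were not fitted. Which of them shared a subset is not given here. The values of *Hapln3*, of *Cemip* and of the synthases in SMCs rest on at most a few UMIs per aorta.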

Other observations

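The largest unnamed cluster (730 cells, led by *Mup3* and *Mup20*, median 1768 UMIs) held SMC markers at a summed 58107 and 53301 CPM, *Vcan* at 61.3 and 75.9 CPM and *Acan* at 15.6 and 33.9 CPM. It was left unnamed because its depth was low and no SMC marker was among its leading genes, and its cells are in none of the SMC values above.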
